A study of Mus musculus with 36 samples.

Results

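Valsartan was compared with vehicle in ligated left carotid arteries of C57BL/6 mice (C57BL/6J in the series' design text) that were dosed late, after the injury had begun to remodel the vessel. The comparison was chosen by strain, regimen and treatment as the labels give them, and it holds 6 of the 36 RNA libraries of the series, 3 from vehicle mice and 3 from valsartan mice. Vehicle was given at 2 mL/kg/day and valsartan at 27 mg/kg/day. In this therapeutic regimen dosing began on day 7 after ligation and the arteries were taken on day 14, so that every animal had been ligated and had 7 days of dosing. The other 30 libraries cover the strain 129X1/SvJ, sacubitril/valsartan at 60 mg/kg/day and a prophylactic regimen of 16 days that began 2 days before ligation. No genetic modification is named in the labels, and age and sex were not given in the sources used here. The number of libraries matches the 3 mice that the labels state for each group. The labels do not say which library came from which mouse, so p-values measure the spread between these libraries.

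Ligation of the common carotid artery stops flow, and the wall then thickens by inward remodelling: smooth muscle cells lose contractile proteins and divide, a neointima forms, leukocytes enter and matrix is laid down. Renin cleaves angiotensinogen to angiotensin I, and angiotensin-converting enzyme or mast cell chymase turns this into angiotensin II. Angiotensin II acts on the type 1 receptor of smooth muscle to raise tone, growth, matrix synthesis and inflammatory signals, and on the type 2 receptor, whose actions are held to oppose these. Valsartan is a blocker of the type 1 receptor. The comparison asks what 7 days of this block did to the transcripts of an artery that was already remodelling.

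The 6 libraries held 18962081 to 28444597 counts in genes, and the library totals of the whole series reached 28967579. Levels below are in CPM, each count scaled to a common library total. No library was a copy of another: the smallest chi-square per degree of freedom among the 15 pairs was 70.4, between valsartan 2 and valsartan 3. The labelled tissue was present in all 6, since the smooth muscle gene Acta2 was at 1299.5, 616 and 611 CPM in vehicle 1, 2 and 3 and at 422, 639 and 1548 CPM in valsartan 1, 2 and 3, and the endothelial gene Pecam1 at 246, 188 and 203 CPM and 172, 240.1 and 268 CPM in the same order.

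The libraries differed far more in transcripts of tissues around the artery. Rag1, a recombinase subunit that immature T and B cells use to build their receptors, was at 0.984, 826 and 135 CPM in vehicle 1, 2 and 3 and at 965, 1.57 and 4.97 CPM in valsartan 1, 2 and 3, so that vehicle 2, vehicle 3 and valsartan 1 carried thymus transcripts. Tg, the thyroid hormone precursor thyroglobulin, was at 3.37, 4.23 and 42479 CPM and 4877, 5.02 and 9.73 CPM, and Pth, the hormone of the parathyroid, at 8.40, 145 and 5221 CPM and 6104, 0.766 and 0.649 CPM. Vehicle 3 and valsartan 1 thus carried thyroid and parathyroid transcripts, and vehicle 2 carried Pth at a lower level. The skeletal muscle actin Acta1 was at 3193, 713 and 1745 CPM and 2225, 151 and 32.9 CPM, lowest in valsartan 2 and 3. Th, which makes catecholamine precursors in sympathetic neurons and glomus cells, was at 58.7, 56.7 and 39.3 CPM and 2.11, 136 and 0.303 CPM, with valsartan 1 and 3 low. The brown fat gene Ucp1 was at 925, 1027 and 503 CPM and 1072, 375 and 648 CPM. In such bulk tissue, fewer cells of a type and less RNA per cell cannot be told apart.

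**Figure D1:**
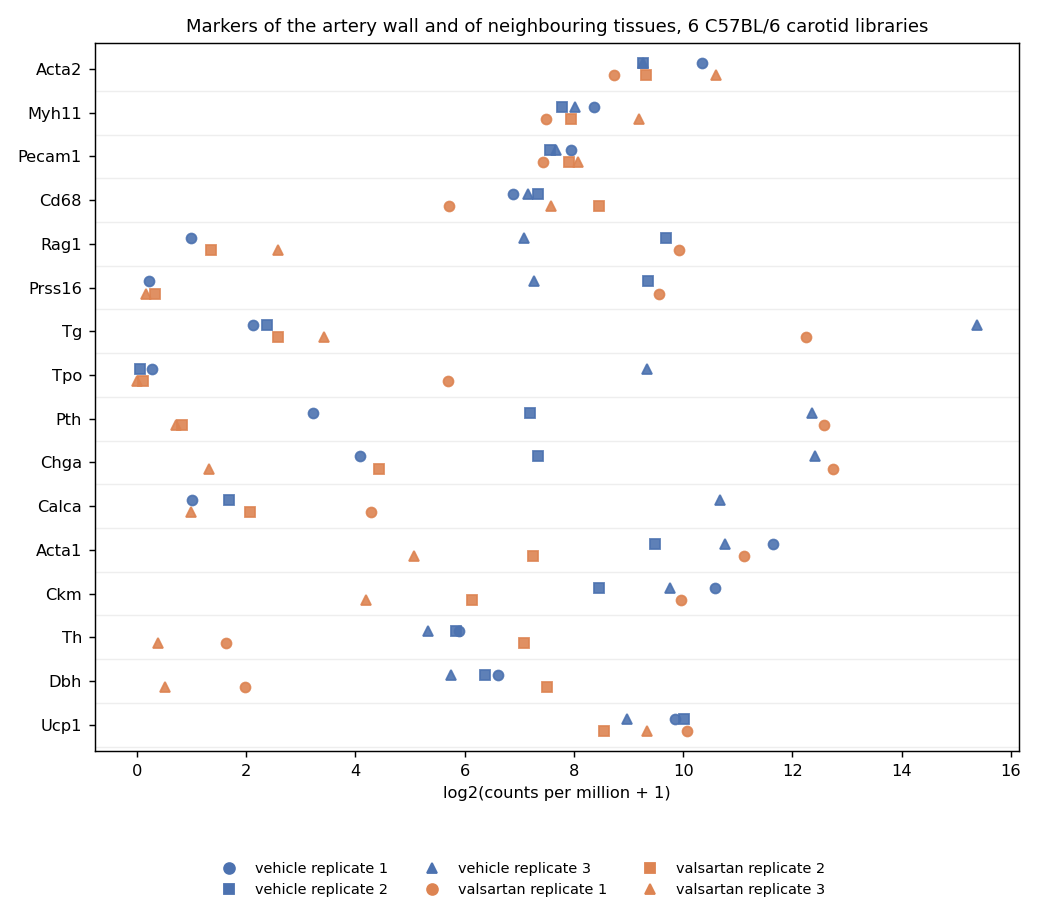
Levels of 16 marker genes in the 3 vehicle (blue) and 3 valsartan (orange) libraries on a log2(CPM + 1) axis; each point is 1 library and its shape gives the replicate. Acta2, Myh11 and Pecam1 are high in all 6 libraries, while Rag1 is high in vehicle 2, vehicle 3 and valsartan 1, Tg and Pth in vehicle 3 and valsartan 1, and Acta1 is low in valsartan 2 and 3.

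No gene passed the test between valsartan and vehicle after adjustment for all genes tested. In edgeR's quasi-likelihood test with Benjamini-Hochberg adjustment, 0 of 18628 genes (0%) had an adjusted p under 0.05, and the smallest adjusted p was 1. At an unadjusted p under 0.05 there were 252 genes (1.35%), 65 of them higher (0.349%) and 187 lower (1%) with valsartan. DESeq2 also called 0 genes and gave 335 at an unadjusted p under 0.05. The 3 valsartan libraries lay wholly above the 3 vehicle libraries for 195 genes (1.05%) and wholly below for 201 genes (1.08%). The median log2 difference over all genes was -0.014, and the 95% confidence interval of a gene's log2 difference had a median half-width of 0.76, with quartiles of 0.46 and 1.30. A typical gene would have had to differ by more than this width before even its own unadjusted interval left 0, so smaller differences were not detectable with these libraries. All values below are levels in CPM or log2 differences (valsartan minus vehicle) with their standard error (SE), and none of them passed the adjusted threshold. Higher and lower give the sign of such a difference with valsartan, not a call.

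Among renin-angiotensin genes, 16 of 20 passed the filter on low counts and 0 were called. An unadjusted p under 0.05 was found for 2, both lower with valsartan (against 1% of all genes lower), and the list's median log2 difference was -0.084. Ren1, the gene for renin (chr1:133350510-133360325, plus strand, GRCm38), was barely present, at 1.65, 0.306 and 0.452 CPM in vehicle 1, 2 and 3 and 0.105, 0.0851 and 0.432 CPM in valsartan 1, 2 and 3. Vehicle 1 was the highest and valsartan 1 and 2 were the lowest, while valsartan 3 lay between vehicle 2 and 3. The log2 difference was -2.00 (SE 0.80; unadjusted p = 0.0183), and -0.78 without vehicle 1. The counts behind it summed to 64 in the vehicle libraries, 47 of them in vehicle 1, and to 14 in the valsartan libraries.

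Agt, which encodes the renin substrate angiotensinogen (chr8:124556534-124569706, minus strand), was at 5.80, 1.88 and 3.98 CPM in vehicle 1, 2 and 3 and 1.32, 2.08 and 2.72 CPM in valsartan 1, 2 and 3. The groups overlapped, with a log2 difference of -0.99 (95% interval -2.02 to 0.039; unadjusted p = 0.0588). Ace, the converting enzyme of endothelium (chr11:105967945-105989964, plus strand), was far more abundant, at 589, 254 and 301 CPM in vehicle 1, 2 and 3 and 127, 361 and 573 CPM in valsartan 1, 2 and 3. Its highest value was in vehicle 1, closely followed by valsartan 3, and its lowest in valsartan 1. The log2 difference of Ace was -0.16 (95% interval -1.24 to 0.92).

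The receptor that valsartan blocks is encoded in the mouse mainly by Agtr1a (chr13:30336441-30382867, plus strand). Agtr1a was at 11.1, 5.67 and 7.19 CPM in vehicle 1, 2 and 3 and 4.75, 9.32 and 8.61 CPM in valsartan 1, 2 and 3. The 3 valsartan values lay within or just below the vehicle range, and the log2 difference was -0.14 (95% interval -0.88 to 0.60). These libraries do not exclude a difference of Agtr1a inside this interval. Agtr2, the type 2 receptor, was at 0.668, 1.22 and 1.76 CPM in vehicle 1, 2 and 3 and 0.158, 3.74 and 3.07 CPM in valsartan 1, 2 and 3. Valsartan 2 and 3 were above every vehicle library and valsartan 1 was below them all, so that the log2 difference of 0.94 had an interval of -0.67 to 2.55. Agtrap, a protein that binds the type 1 receptor and promotes its internalisation, differed by 0.11 on the log2 scale, and Atp6ap2, the prorenin receptor, by 0.061.

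The peptidases that trim angiotensins overlapped between the groups. Mme, which encodes neprilysin, was at 58.8, 43.1 and 38.2 CPM with vehicle and 60.9, 35.4 and 44.5 CPM with valsartan, a log2 difference of -0.060 (95% interval -0.95 to 0.83). The aminopeptidase genes Enpep, Anpep, Lnpep and Rnpep differed by -0.15, 0.36, -0.054 and -0.11. The mineralocorticoid receptor gene Nr3c2 differed by -0.047, and Hsd11b2, which protects that receptor from glucocorticoids, by -0.71 at levels under 1 CPM in all 6 libraries. Agtr1b, Mas1, Ctsg and Cyp11b2 were too low to be tested.

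**Figure D2:**
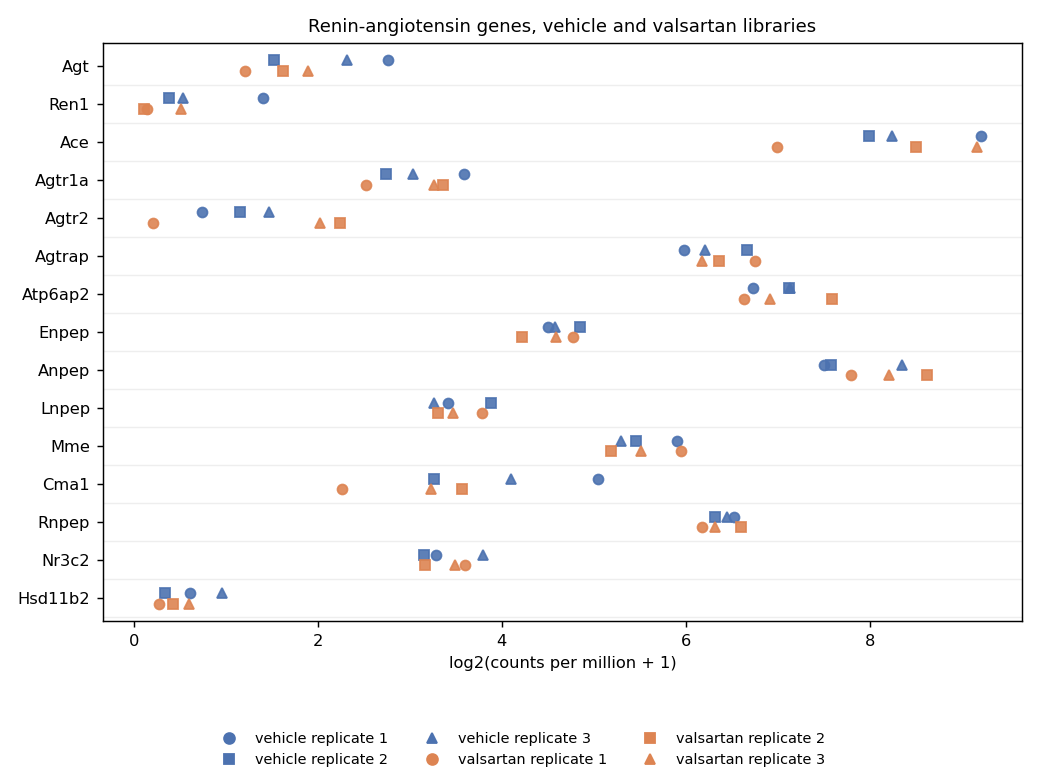
Levels of 15 of the 16 tested renin-angiotensin genes on a log2(CPM + 1) axis, with vehicle in blue and valsartan in orange; each point is 1 library. The groups overlap for every gene shown; Cma1 is highest in vehicle 1 and lowest in valsartan 1.

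Transcripts that type 1 receptor signalling is known to induce did not separate the groups. Of 24 such genes 23 were tested, 0 were called, 0 had an unadjusted p under 0.05, and 13 had a positive and 10 a negative log2 difference, with a median of 0.048. This median joined unlike valsartan libraries. The mean log2(CPM + 1) of the list was 6.98, 6.49 and 6.38 in vehicle 1, 2 and 3 and 5.61, 6.93 and 7.13 in valsartan 1, 2 and 3. Valsartan 1 was the lowest library for 17 of the 23 genes (73.9%, against 24.7% of all genes). Edn1, which encodes the vasoconstrictor endothelin-1, was at 32.2, 13.6 and 9.95 CPM in vehicle 1, 2 and 3 and 8.75, 13.1 and 14.7 CPM in valsartan 1, 2 and 3. Vehicle 1 stood above the other 5 libraries, and the log2 difference of -0.69 (SE 0.46) became 0.091 without it. Il6, an inflammatory cytokine, was at 1.97, 1.44 and 4.21 CPM with vehicle and 0.264, 4.08 and 18.2 CPM with valsartan. It was highest in valsartan 3 and lowest in valsartan 1, a log2 difference of 1.59 (SE 1.19) that became -0.27 without valsartan 3. Vegfa, the endothelial growth factor, was highest in vehicle 3 and differed by -0.50 (SE 0.39). Among 16 tested genes of natriuretic peptide and cGMP signalling, 8 were higher and 8 lower, none with an unadjusted p under 0.05. The receptor gene Npr1 differed by -0.34 (SE 0.33), and Nppc, which encodes C-type natriuretic peptide and lay above 1 CPM only in vehicle 3, by -1.56 (SE 0.92), and by 0.64 without vehicle 3.

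Mast cell genes were lower with valsartan in 9 of 10 cases. Of the 10 tested genes 0 were called, but 6 had an unadjusted p under 0.05 and were lower, beside 1% of all genes; the median log2 difference was -1.18, against -0.014 over all genes. Mast cells sit in the adventitia and store proteases, heparin and histamine in granules. Mast cell chymase can convert angiotensin I without Ace, and which of the mouse chymases does so was not tested here.

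Cma1, a mast cell chymase gene (chr14:55941451-55944675, minus strand), was at 32.0, 8.64 and 16.1 CPM in vehicle 1, 2 and 3 and 3.80, 10.9 and 8.39 CPM in valsartan 1, 2 and 3. Vehicle 1 was highest and valsartan 1 lowest, and vehicle 2 lay within the valsartan range. The log2 difference was -1.38 (SE 0.51; unadjusted p = 0.0124). Mcpt4, a second granule chymase from the same gene cluster (chr14:56059629-56062313, minus strand), was at 29.8, 8.16 and 17.2 CPM with vehicle and 2.90, 10.6 and 11.0 CPM with valsartan, a log2 difference of -1.24 (SE 0.52). Cpa3, the granule carboxypeptidase (chr3:20215620-20242181, minus strand), was at 24.3, 7.33 and 14.3 CPM and 1.85, 8.85 and 8.78 CPM, a log2 difference of -1.30 (SE 0.54). The order of the libraries was alike in these 3 genes: vehicle 1, then vehicle 3, with vehicle 2 below valsartan 2 and valsartan 1 at the bottom.

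The tryptase gene Tpsb2 (chr17:25366305-25369098, plus strand) was at 27.7, 9.47 and 15.6 CPM in vehicle 1, 2 and 3 and 4.64, 11.7 and 9.30 CPM in valsartan 1, 2 and 3, a log2 difference of -1.12 (SE 0.43; unadjusted p = 0.0147). Its neighbour Tpsab1 (chr17:25343245-25345562, minus strand) was at 3.59, 0.262 and 0.769 CPM in vehicle 1, 2 and 3 and 0.264, 0.596 and 0.173 CPM in valsartan 1, 2 and 3, a log2 difference of -2.28 (SE 0.73; unadjusted p = 0.00438). The tryptases are close paralogues, and so are the chymases, so reads may have been split between copies and the level of each single gene is uncertain. Mrgprb1, a receptor of the Mrgpr family (chr7:48444113-48456342, minus strand), was at 3.73, 1.66 and 2.53 CPM in vehicle 1, 2 and 3 and 0.580, 1.36 and 1.12 CPM in valsartan 1, 2 and 3. It was the 1 gene of the list whose groups did not overlap (against 1.08% of all genes lower), with a log2 difference of -1.43 (SE 0.47; unadjusted p = 0.00525).

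The 4 remaining genes did not reach an unadjusted p of 0.05. Kit, the receptor for stem cell factor, differed by -0.37, and the IgE receptor genes Fcer1a and Ms4a2 by -0.96 and -0.73. Hdc, which makes histamine and is also expressed by neutrophils, went the other way: it was at 6.43, 19.5 and 15.7 CPM in vehicle 1, 2 and 3 and 7.44, 53.3 and 35.2 CPM in valsartan 1, 2 and 3, a log2 difference of 1.22 (SE 0.67). Valsartan 2 and 3, the libraries with the highest Hdc, also had the highest levels of neutrophil genes, described further on.

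The mast cell result rested on vehicle 1. Without that library 0 of the 10 genes were lower at an unadjusted p under 0.05 and the list's median was -0.54, although 9 of 10 differences stayed negative. That fit had 356 of all 19075 genes at an unadjusted p under 0.05, 87 of them higher. Without valsartan 1 there were 2 lower genes (median -0.82). In that fit 987 of all 19041 genes had an unadjusted p under 0.05, 322 of them higher. Without valsartan 1 and vehicle 3, the libraries richest in thyroid and parathyroid transcripts, there was 1 lower mast cell gene, beside 665 of 18997 genes (339 higher). In a fit of these 6 libraries alone there was also 1, beside 78 of 16551 genes (34 higher). Vehicle 1 had the highest adipocyte score and the lowest thymocyte score of the 6 libraries, and the part of these tissues in the mast cell result was not tested. With the scores of the muscle, adipocyte and Schwann cell lists added to the fit, 7 of the 10 genes were lower at an unadjusted p under 0.05. The background rose too: in that fit 858 of 18628 genes had such a p, 138 of them higher, against 252 and 65 in the main fit.

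**Figure D3:**
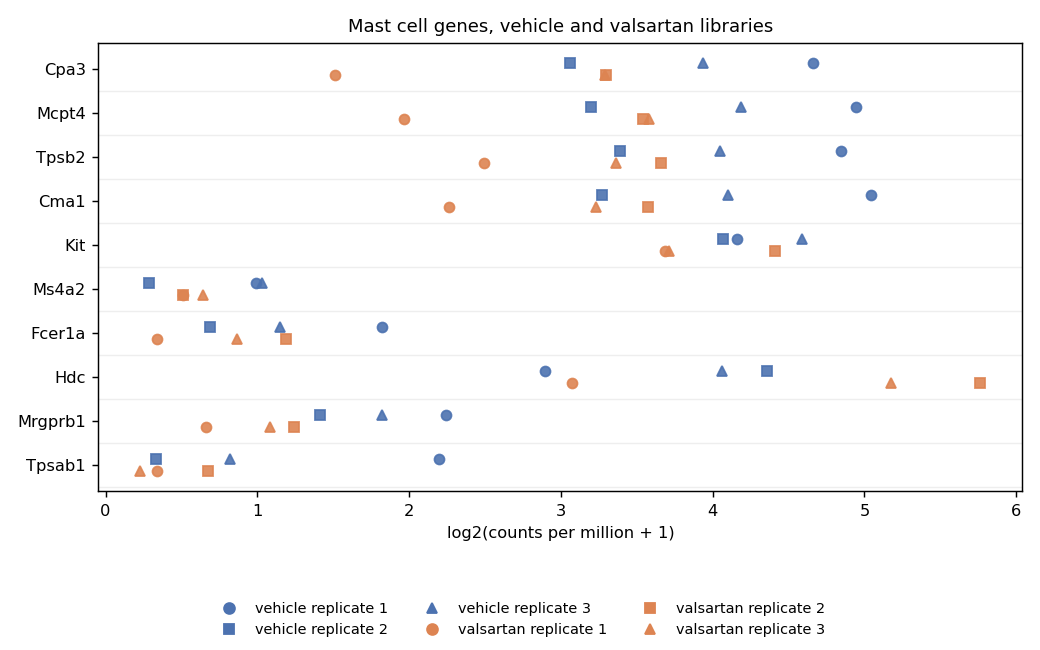
Levels of the 10 mast cell genes on a log2(CPM + 1) axis, with vehicle in blue and valsartan in orange; each point is 1 library. Vehicle 1 (blue circle) is the highest library for 7 of the 10 genes and valsartan 1 (orange circle) the lowest for 7, and the groups are apart only for Mrgprb1.

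No contractile smooth muscle gene passed the test: 16 were tested, 0 called and 0 had an unadjusted p under 0.05, with 8 higher and 8 lower and a median log2 difference of 0.018. The 3 members with the smallest p, Des, Ldb3 and Tpm2, are also expressed in skeletal muscle. They differed by -1.13, -0.99 and -0.57, and Des and Ldb3 were lowest in valsartan 2 and 3, the libraries with the least Acta1. Of 14 genes linked to modulated smooth muscle, 2 had an unadjusted p under 0.05 and both were lower (against 1% of all genes lower). Sox9, a transcription factor of cartilage and of matrix-producing smooth muscle, was at 10.8, 6.81 and 32.9 CPM in vehicle 1, 2 and 3 and 11.3, 6.64 and 8.52 CPM in valsartan 1, 2 and 3, a log2 difference of -0.97 (SE 0.42) that became -0.10 without vehicle 3. Tnfrsf11b, the decoy receptor osteoprotegerin, was at 133, 19.4 and 10.9 CPM in vehicle 1, 2 and 3 and 7.17, 16.8 and 25.4 CPM in valsartan 1, 2 and 3, a log2 difference of -1.84 (SE 0.84) that became 0.18 without vehicle 1. Each of these 2 differences was thus carried by a single vehicle library.

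Genes of the fibrillar matrix split the valsartan libraries. Of 26 tested, 0 were called and 0 had an unadjusted p under 0.05, with a median log2 difference of 0.26. The list's score, the mean log2(CPM + 1) of its genes, was 9.05, 8.10 and 8.03 in vehicle 1, 2 and 3 and 6.33, 9.00 and 9.40 in valsartan 1, 2 and 3. Valsartan 1 was the lowest of the 6 libraries for 25 of 26 genes (96.2%, against 24.7% of all genes), and valsartan 3 the highest for 18.

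Col3a1, the collagen III chain, was at 14711, 7556 and 7167 CPM in vehicle 1, 2 and 3 and 1105, 20698 and 27254 CPM in valsartan 1, 2 and 3. Its log2 difference was 0.69 (SE 0.73), and 1.25 without valsartan 1. Postn, the matricellular protein periostin of remodelling vessels, was at 1033, 712 and 744 CPM in vehicle 1, 2 and 3 and 289, 1799.7 and 2821 CPM in valsartan 1, 2 and 3, with a log2 difference of 0.95 (SE 0.60) that became 1.46 without valsartan 1. Fbn2, a microfibril protein, was at 2.36, 7.20 and 6.20 CPM with vehicle and 1.05, 15.7 and 17.9 CPM with valsartan, a log2 difference of 1.16 (SE 0.82). Eln, which encodes elastin, was 1 of 8 genes of the list that were highest in vehicle 1. It was at 11506, 2859 and 1239 CPM in vehicle 1, 2 and 3 and 1429.6, 2313 and 3673 CPM in valsartan 1, 2 and 3, a log2 difference of -1.18 (SE 1.10) that became 0.33 without vehicle 1.

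Proteases of the matrix placed valsartan 2 and 3 above every vehicle library and valsartan 1 below them all. The score of 26 matrix proteases and inhibitors was 6.40, 6.56 and 6.57 with vehicle and 5.06, 7.37 and 7.25 with valsartan, and its median log2 difference was 0.29. Mmp13, a collagenase, was at 3.34, 27.3 and 24.2 CPM in vehicle 1, 2 and 3 and 1.95, 69.5 and 89.8 CPM in valsartan 1, 2 and 3, a log2 difference of 1.61 (SE 1.29). Adamts4, which cleaves aggrecan and versican, was at 3.34, 5.72 and 4.07 CPM with vehicle and 0.633, 13.4 and 12.6 CPM with valsartan, a log2 difference of 1.02 (SE 0.76). Mmp10 differed by 1.64 (SE 1.17) at levels under 2 CPM. In the TGF-beta pathway, which drives matrix synthesis, 17 genes were tested, with 7 higher and 10 lower, none at an unadjusted p under 0.05 and a median of -0.11.

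Valsartan 1, the library that set these lists apart, also had the highest Rag1 and Pth of the 6, and its level of the fibroblast marker Pdgfra was 26.7, 191 and 228 CPM in valsartan 1, 2 and 3 against 185, 103 and 116 CPM with vehicle. Without valsartan 1 the medians were 0.76 for matrix and 0.78 for proteases, against -0.10 over all genes, with 2 genes of each list higher at an unadjusted p under 0.05 (against 1.69% of all genes in that fit) and 0 called. With the scores of 3 tissue lists (skeletal muscle, adipocytes and Schwann cells) in the fit the medians were -0.37 and -0.10. The direction of both lists therefore differed between these settings, and the part of thymus and parathyroid transcripts in it was not tested.

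Leukocyte genes did not pass the test, and valsartan 1 was the lowest library for 17 of 18 macrophage and 10 of 13 neutrophil genes, against 24.7% of all genes tested. Neutrophil genes had the largest median of the inflammatory lists, 0.99 over 13 tested genes, with 10 higher, 3 lower and 0 at an unadjusted p under 0.05. Csf3r, the receptor for granulocyte colony-stimulating factor, was at 22.9, 36.9 and 37.8 CPM in vehicle 1, 2 and 3 and 9.33, 103 and 83.4 CPM in valsartan 1, 2 and 3. Valsartan 2 and 3 were more than any vehicle library and valsartan 1 was less, for a log2 difference of 1.00 (SE 0.78). Il1r2, a decoy receptor for interleukin-1, differed by 1.29 (SE 0.79), and Retnlg, a resistin-like protein of neutrophils, was at 0.562, 1.83 and 1.18 CPM with vehicle and 0.0527, 6.76 and 3.24 CPM with valsartan, both with valsartan 2 and 3 above and valsartan 1 below every vehicle library.

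The macrophage score was 6.70, 6.53 and 6.39 with vehicle and 4.82, 7.36 and 7.12 with valsartan, with a median log2 difference of 0.12 over 18 genes. Cd163, a scavenger receptor of resident macrophages, was at 61.0, 28.4 and 35.4 CPM in vehicle 1, 2 and 3 and 8.54, 25.2 and 40.4 CPM in valsartan 1, 2 and 3, a log2 difference of -0.80 (SE 0.47). Cd14, the lipopolysaccharide co-receptor, was at 45.3, 55.7 and 48.8 CPM with vehicle and 12.1, 140.0 and 97.9 CPM with valsartan, a log2 difference of 0.72 (SE 0.78). Among 24 cytokine, chemokine and adhesion genes the median was 0.26. Cxcl5, a neutrophil chemokine, was at 11.4, 25.6 and 33.3 CPM in vehicle 1, 2 and 3 and 2.69, 99.8 and 101 CPM in valsartan 1, 2 and 3, a log2 difference of 1.56 (SE 1.10). Il10 and Cx3cl1 had log2 differences of -1.26 (SE 0.81) and -0.58 (SE 0.39), with vehicle 1 the highest library for both.

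Interferon-induced genes were higher with valsartan in 18 of 20 cases, with a median log2 difference of 0.37, 0 called and 0 at an unadjusted p under 0.05. Vehicle 1 was the highest library for 10 of the 20 genes, and vehicle 3 the lowest for 16. The median was 1.12 without vehicle 1, with 9 of 20 genes higher at an unadjusted p under 0.05 (against 0.456% of all genes in that fit), and 0.071 without vehicle 3. Immediate early genes were lower in 12 of 18 cases, and Fosb, Nr4a1 and Fosl1, which had the smallest p, were each highest in vehicle 1 and differed by -1.27, -0.67 and -0.97. Without vehicle 1 these differences were 0.73, 0.030 and 0.086.

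Cell cycle genes were higher in 18 of 18 cases, by a median of 0.32, and valsartan 1, which carried the highest Rag1, was the highest library for all 18. Plk1, a mitotic kinase, was at 7.14, 35.6 and 9.54 CPM in vehicle 1, 2 and 3 and 58.5, 6.98 and 6.10 CPM in valsartan 1, 2 and 3, a log2 difference of 0.41 (SE 1.06). Without valsartan 1 all 18 differences were negative, with a median of -1.56. Genes of mitochondrial respiration were lower in 20 of 20 cases, by a median of -0.19, although valsartan 1 was the highest library for all 20 and valsartan 2 the lowest for all 20. With the 3 tissue scores in the fit all 20 were higher.

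Of the remaining lists, 18 clock genes had a median of 0.035, 15 hypoxia and glycolysis genes -0.16, 16 stress and glucocorticoid genes -0.14, 16 endothelial genes 0.050 and 15 adventitial fibroblast genes -0.023. None of their members had an unadjusted p under 0.05. Valsartan 1 was the lowest library for 15 of 15 fibroblast and 12 of 16 endothelial genes, against 24.7% of all genes. Valsartan 3 was the highest for 9 genes of each of these 2 lists, against 11.0% of all genes. The fibroblast score was 9.13, 8.09 and 8.38 in vehicle 1, 2 and 3 and 6.61, 8.88 and 9.24 in valsartan 1, 2 and 3. The clock gene Per2 differed by 0.45 (SE 0.32) and the tight junction gene Cldn5 by 0.34 (SE 0.42). The stress protein gene Lcn2, highest in vehicle 1, differed by -1.30 (SE 0.82), and by 0.12 without vehicle 1.

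**Figure D4:**
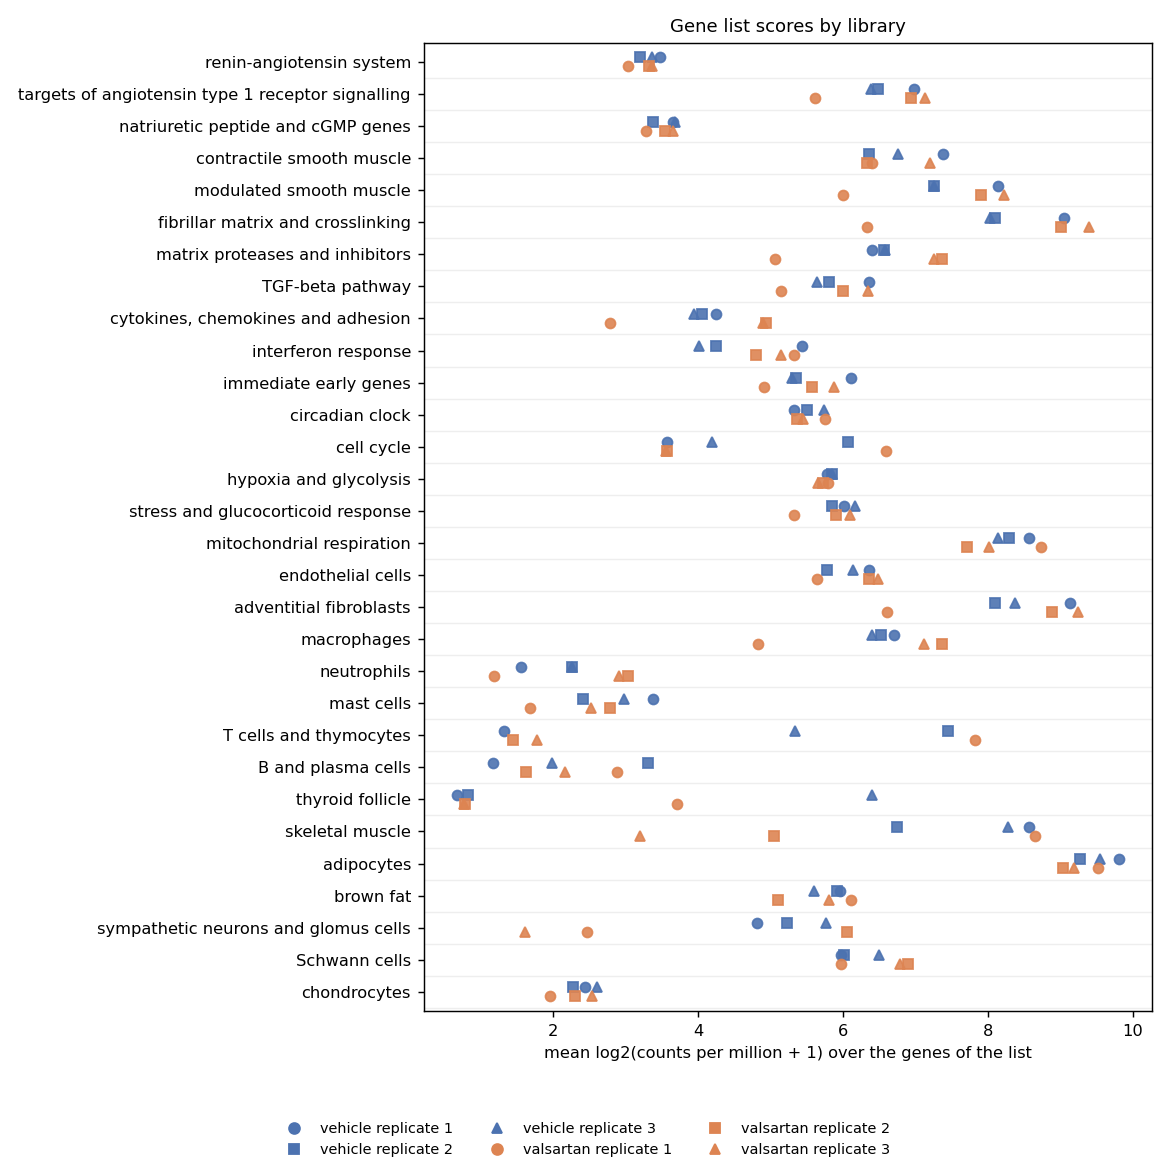
Scores of the 30 gene lists (mean log2(CPM + 1) over the genes of a list) in the 3 vehicle (blue) and 3 valsartan (orange) libraries; each point is 1 library. Valsartan 2 and 3 lie above all vehicle libraries for proteases, cytokines, macrophages and neutrophils while valsartan 1 lies below them, and lists of thymocytes, thyroid and skeletal muscle spread the libraries of both groups widely.

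Lists of neighbouring tissues were high in some libraries of both groups and low in others. The skeletal muscle score was 8.56, 6.74 and 8.27 in vehicle 1, 2 and 3 and 8.65, 5.05 and 3.19 in valsartan 1, 2 and 3. Thyroid follicle genes were lower in 12 of 12 cases, by a median of -3.04, and 2 had an unadjusted p under 0.05 (against 1% of all genes lower). Tshr, the thyrotropin receptor, was at 4.15, 4.37 and 30.5 CPM in vehicle 1, 2 and 3 and 4.22, 3.66 and 3.81 CPM in valsartan 1, 2 and 3, so that vehicle 3 alone stood apart. Skeletal muscle genes were lower in 16 of 18 cases (median -1.31) and 13 B and plasma cell genes were all lower (median -0.35). None of either list had an unadjusted p under 0.05. Vehicle 2 was the highest of the 6 libraries for 12 of the 13 B and plasma cell genes. With DESeq2 size factors in edgeR or upper quartile factors 3 of the 13 B cell genes turned positive. Thymocyte genes had a median of 0.11. In the sympathetic neuron and glomus cell list 15 of 17 genes were lower, 1 of them at an unadjusted p under 0.05 (against 1% of all genes lower). This was Scg2, a secretory granule protein, which had an unadjusted p of 0.0229 with 15.0, 15.9 and 228 CPM in vehicle and 4.32, 28.0 and 1.21 CPM in valsartan libraries. Sox9, which is also on the modulated smooth muscle list, was the 1 of 10 tested chondrocyte genes with an unadjusted p under 0.05 (against 1% of all genes lower).

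All 15 Schwann cell genes were higher with valsartan, by 0.40 at the median, 0 had an unadjusted p under 0.05, and 3 did not overlap between the groups (against 1.05% of all genes higher), Prx and Cnp among them. Prx, the periaxin of myelinating Schwann cells, was at 97.2, 78.3 and 115 CPM in vehicle 1, 2 and 3 and 123, 166 and 184 CPM in valsartan 1, 2 and 3, a log2 difference of 0.67 (SE 0.36). The median lay between 0.28 and 0.69 when single libraries were left out, and it was 0.12 with the 3 tissue scores in the fit, a setting that holds the list's own score.

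Adipocyte genes were lower in 13 of 14 cases, by a median of -0.26. The 3 that did not overlap (against 1.08% of all genes lower) were enzymes of fatty acid synthesis. Fasn, the fatty acid synthase, was at 5394, 8419 and 8660.3 CPM in vehicle 1, 2 and 3 and 5225, 2985 and 4217 CPM in valsartan 1, 2 and 3, a log2 difference of -0.88 (SE 0.59). Acaca, which makes its substrate malonyl-CoA, differed by -0.87 (SE 0.49), and Scd1, which desaturates its products, by -0.89 (SE 0.59). Every valsartan library was below every vehicle library for these 3 genes, yet each interval included 0. The brown fat marker Ucp1 overlapped between groups, and the brown fat list had a median of -0.16.

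Small structured RNAs that lack the usual poly(A) tail were higher with valsartan. This list of 8 was put together after these values had been seen, so its counts and the shares beside them are no test of such RNAs. Of 7 tested, all 7 were higher and 0 were called. An unadjusted p under 0.05 was found for 6 (against 0.349% of all genes), and the same 6 did not overlap (against 1.05%). The 5.8S ribosomal RNA n-R5-8s1 was at 14.9, 17.7 and 13.9 CPM in vehicle 1, 2 and 3 and 35.4, 235 and 107 CPM in valsartan 1, 2 and 3, a log2 difference of 2.99 (SE 1.10; unadjusted p = 0.0116). Rpph1, the RNA of ribonuclease P (chr14:50807449-50807767, minus strand), was at 0.387, 0.349 and 0.633 CPM in vehicle 1, 2 and 3 and 1.21, 5.36 and 2.51 CPM in valsartan 1, 2 and 3, and Rn7sk, which restrains transcription elongation, at 0.738, 2.18 and 1.94 CPM in vehicle 1, 2 and 3 and 2.90, 12.2 and 7.57 CPM in valsartan 1, 2 and 3. Rmrp, the RNA of a related ribonuclease, was at 0.246, 0.524 and 0.769 CPM with vehicle and 1.00, 5.53 and 3.33 CPM with valsartan. Valsartan 2 was highest and valsartan 1 the lowest of the 3 valsartan libraries for each of these 4 RNAs. Without valsartan 2, 1 of the 7 had an unadjusted p under 0.05 (against 0.294% of all genes higher in that fit), and the list's median of 2.69 became 2.01. The library kit named in the labels is one for messenger RNA, and its carry-over of such RNAs was not tested.

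Among single genes, the 12 named genes with the smallest unadjusted p in each direction were taken, after passing over 3 unnamed gene models on the lower and 11 on the higher side. Calca, which encodes calcitonin and CGRP (chr7:114631478-114636357, minus strand), had the smallest p of all genes, 0.000829. It was at 1.02, 2.23 and 1628 CPM in vehicle 1, 2 and 3 and 18.4, 3.23 and 0.995 CPM in valsartan 1, 2 and 3, so that the log2 difference of -6.22 (SE 1.65) came from vehicle 3 alone and was 2.13 without it. Cabp7, Gprc5a, Calml3, Tpsg1 and Tshr also had their peak in vehicle 3, the library with the most Tg.

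Vsig4, a complement receptor of resident macrophages (chrX:96247203-96293438, minus strand), was at 3.34, 1.00 and 1.36 CPM in vehicle 1, 2 and 3 and 0.158, 0.383 and 0.951 CPM in valsartan 1, 2 and 3. All valsartan libraries were below all vehicle libraries in CPM, but the closest, vehicle 2 and valsartan 3, held 23 and 22 counts. Their TMM factors, 1.09 and 1.00, are not in the CPM, so that their order depends on the scaling. The prophylactic C57BL/6 vehicle libraries had Vsig4 at 0.615 to 0.933 CPM. The log2 difference of Vsig4 was -1.98 (SE 0.55, unadjusted p = 0.00133), and it was -1.17 without vehicle 1 and -1.55 without valsartan 1. Hmga2, a chromatin protein of growing mesenchymal cells (chr10:120361275-120476469, minus strand), was at 9.67, 0.742 and 2.13 CPM in vehicle 1, 2 and 3 and 0.897, 0.723 and 0.735 CPM in valsartan 1, 2 and 3. Its log2 difference of -2.54 (SE 0.71; unadjusted p = 0.00129) was -0.85 without vehicle 1. Esm1, a proteoglycan of activated endothelium, was at 22.9, 5.41 and 38.0 CPM in vehicle 1, 2 and 3 and 6.86, 4.25 and 5.79 CPM in valsartan 1, 2 and 3, a log2 difference of -2.03 (SE 0.64). Vehicle 1 and 3 were above all valsartan libraries and vehicle 2 was within their range. Smpd3, a neutral sphingomyelinase, was at 22.3, 14.1 and 31.8 CPM with vehicle and 8.39, 17.4 and 8.26 CPM with valsartan, a log2 difference of -1.05 (SE 0.33). The pseudogene Eif5al3-ps had 8 counts in the vehicle libraries and 0 in the valsartan libraries. The exact 95% counting interval of its ratio of valsartan to vehicle reached up to 0.656. This interval covers counting error only.

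On the higher side, 4 of the 12 were the small structured RNAs Rny3, Snord17, Rpph1 and n-R5-8s1. Gdpd3, a lysophospholipase, was at 3.76, 4.37 and 3.62 CPM in vehicle 1, 2 and 3 and 4.75, 5.96 and 6.53 CPM in valsartan 1, 2 and 3. It had narrow spread and no overlap, with a log2 difference of 0.52 (SE 0.18; unadjusted p = 0.00821). Capn11, a calpain protease (chr17:45630204-45659325, minus strand), was at 0, 0.480 and 0.0452 CPM in vehicle 1, 2 and 3 and 6.59, 3.66 and 0.822 CPM in valsartan 1, 2 and 3, a log2 difference of 4.36 (SE 1.49) with no overlap. Ndst3, a heparan sulfate sulfotransferase, was at 0.598, 1.35 and 2.13 CPM and 1.11, 4.64 and 5.75 CPM and overlapped, with a log2 difference of 1.51 (SE 0.57). Npm2, Pcdhgb8, Slc19a3 and Fndc8 lay under 2 CPM in all 6 libraries. Dpys had 1 count with vehicle and 11 with valsartan, a ratio of 12.3 with an exact 95% counting interval of 1.79 to 530.3, and Snord17 had 3 and 26 counts, a ratio of 9.71 (2.97 to 50.1); both intervals cover counting error only.

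The effect of valsartan was then tested for a difference from the other arms that had vehicle libraries of their own. Against the prophylactic regimen in the same strain, where valsartan was given for 16 days, 0 of 18628 genes differed in effect (0%; smallest adjusted p 0.955 in edgeR's quasi-likelihood test) and 554 (2.97%) passed the unadjusted threshold, 490 of them lower (2.63%). For this difference DESeq2 called 17 of 33274 genes (0.0511%), and 9 of them were T cell receptor or immunoglobulin segments. All 17 were at 0 counts in the 3 prophylactic vehicle libraries, and for 16 the prophylactic valsartan replicate 1 held the highest count of its group. That library had Rag1 at 1738 CPM, against at most 7.61 CPM in the other 5 prophylactic vehicle and valsartan libraries, and its part in these calls was not tested. Against the therapeutic regimen in 129X1/SvJ, 0 genes differed (0%; smallest adjusted p 1.00), 247 (1.33%) passed the unadjusted threshold, 90 of them higher (0.483%), and 0 were called by DESeq2. The valsartan comparison itself had 0 called genes in both of these arms, with 1952 genes (10.5%) at an unadjusted p under 0.05 in the prophylactic C57BL/6 arm, 1864 of them higher and 88 lower (10% and 0.472%), and 468 (2.51%) in the 129X1/SvJ arm, 213 of them higher (1.14%).

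Mast cell genes can be set beside the other 2 arms. Cma1 differed by -0.12 in the prophylactic C57BL/6 arm and by 0.071 in the therapeutic 129X1/SvJ arm, against -1.38 here, and Cpa3 by 0.13 and 0.041, against -1.30. Tpsab1 differed by -1.06 and 0.41, against -2.28. The list's medians were -0.038 and 0.065, against -1.18. No mast cell gene had an adjusted p under 0.05 for the difference of these effects, so that they are not shown to differ. Ren1 differed by 0.15 and -0.057 in the same arms, and Agtr1a by -0.36 and -0.012. For fibrillar matrix the medians were -0.37 in the prophylactic arm, 0.35 in 129X1/SvJ and 0.26 here.

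Sacubitril/valsartan, which adds the neprilysin inhibitor sacubitril, was given to C57BL/6 mice on the same schedule, and its comparison shares the 3 vehicle libraries used here, so that values stand side by side without a test of likeness. It had 0 called genes and 777 (4.17%) at an unadjusted p under 0.05. Cma1 was at 14.2 to 26.4 CPM under sacubitril/valsartan, against 3.80 to 10.9 CPM under valsartan and 8.64 to 32.0 CPM under vehicle. Its log2 difference from vehicle was -0.027, and the mast cell list's median was 0.012, against -1.18 for valsartan. Ren1 was at 0.518 to 1.74 CPM, a log2 difference of 0.27 beside -2.00 for valsartan. Agtr1a differed by 0.38 beside -0.14, and Agtr2 by 1.37 beside 0.94. The small structured RNAs had a median of 2.34 beside 2.69, and the Schwann cell list 0.39 beside 0.40.

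**Figure D5:**
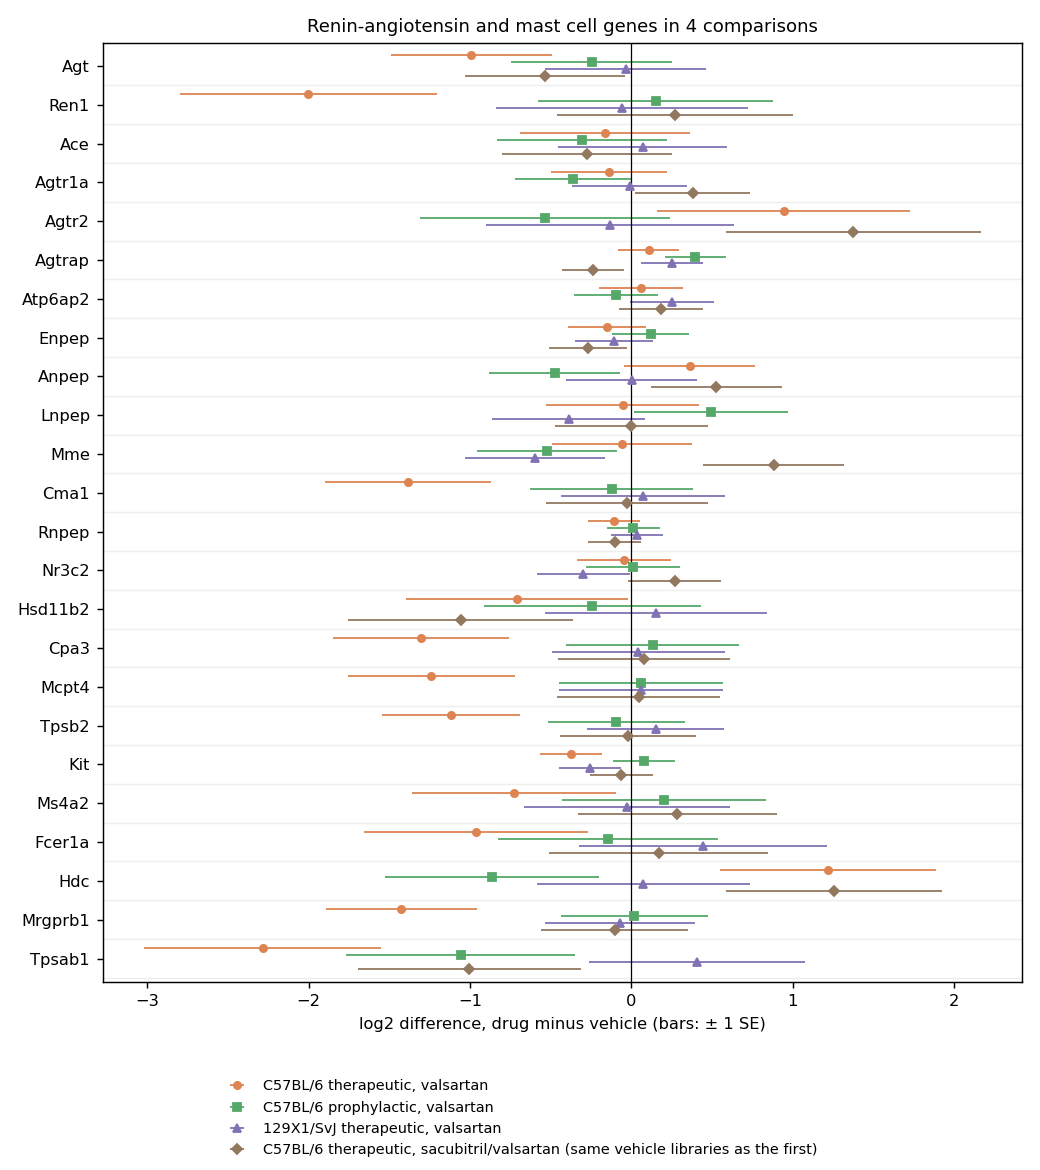
Log2 differences from vehicle (points) with 1 SE (bars) for 15 of the 16 tested renin-angiotensin genes and the other 9 mast cell genes in 4 comparisons. Ren1, Cma1 and most other mast cell genes lie below 0 for valsartan in the therapeutic C57BL/6 arm and near 0 for most of the other comparisons; the sacubitril/valsartan values share the vehicle libraries of the first comparison.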

How the data were processed

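RNA from ligated carotid arteries was made into stranded mRNA libraries (TruSeq), per the labels' protocols. Per the submitters' processing notes the authors used Trimmomatic 0.36, STAR 2.5.2b, the build GRCm38 and featureCounts of Subread 1.5.0p3; the annotation and strand setting are not given in the sources used here. The deposited table holds whole-number read counts for 49568 gene symbols in 36 libraries, of which 47240 were found in GENCODE M21, the source of positions.

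Counts were fitted as 12 group means with edgeR 4.0.16 (quasi-likelihood test, TMM, filterByExpr, R 4.3.3), leaving 24 residual degrees of freedom; p-values were adjusted over 18628 genes (Benjamini-Hochberg, 0.05). CPM were computed from library totals without TMM. DESeq2 1.42.0, other scalings, filters, covariates and left-out libraries were alternatives. The method was tested on simulated data. Libraries are numbered in accession order.

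The comparison and its 30 lists were chosen with earlier results of these data known, and 3 lists (parathyroid, thyroid C cells, small structured RNAs) after these values were seen. Named genes are the 12 per direction with the smallest p, skipping unnamed models, the tested renin-angiotensin genes, and the 3 genes per other list with the smallest p. Markers of neighbouring tissues were also named. Other genes named were singled out after their values were seen: mast cell genes beyond the first 3, Cnp, Pth, Pecam1, Acta2, Pdgfra, Rn7sk and Rmrp. Some genes that this rule names are not reported here, though they stay in the fit and in list counts. The parathyroid genes had a median log2 difference of 0.18 and the C cell genes -3.95. The fit dropped no sample.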

Additional observations from a re-analysis of the deposited data

How the results depend on the processing

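The 18628-gene comparison had 0 called genes under each of the 17 alternatives run. The smallest adjusted p under them was 0.142, once every library with Rag1 at 10 CPM or more was left out. That setting keeps vehicle 1 and valsartan 2 and 3, and assumes that the lone vehicle library varies like the other groups. No paired analysis was possible because the labels carry no replicate numbers. The difference from 129X1/SvJ could not be fitted with those libraries left out, since no valsartan library was then left in an arm, nor in the C57BL/6 libraries alone. The count of genes at an unadjusted p under 0.05 (252) was 472 without a filter, 858 with tissue scores as covariates, 78 in a fit of the 2 groups alone, 128 in a fit of the C57BL/6 libraries, 943 without the libraries rich in Rag1, and 665 without vehicle 3 and valsartan 1, a setting chosen after seeing the data. Leaving out single libraries gave 151 (without valsartan 3) to 987 (without valsartan 1). The count of mast cell genes lower at an unadjusted p under 0.05 (6) was 1 in a fit of the 2 groups alone, 1 without vehicle 3 and valsartan 1, and 0 (without vehicle 1) to 7 when single libraries were left out. The difference from the prophylactic regimen had 17 calls in DESeq2 against 0, all at 0 counts in the 3 prophylactic vehicle libraries and 16 highest in the 1 prophylactic valsartan library rich in Rag1. Some of these fits held fewer samples or genes than the main fit. The causes of these shifts were not tested.

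Of 2199 log2 differences of 131 named genes under the alternatives, 2081 kept their direction and 118 (61 genes) changed sign; 0 were called under any. Rag1 was at 0.030 in DESeq2, 0.032 with DESeq2 size factors, 0.0064 without a filter, 0.023 in a fit of the 2 groups and 0.044 with upper quartile factors. With tissue scores as covariates the log2 differences that changed sign were Atp6ap2 -0.24, Lnpep 0.35, Mme 0.46, Nr3c2 0.23, Il6 -0.067, Des 0.080, Ldb3 0.18, Tpm2 0.43, Col3a1 -0.083, Usp2 0.090, Cycs 0.088, Atp5a1 0.14, Sdha 0.19, Col15a1 -0.32, Cd14 -0.0054, Cd1d1 0.16, Prdm16 0.037, Otop1 0.22, Ucp1 0.17. Without the libraries rich in Rag1 they were Calca 0.89, Nppc 1.05, Xaf1 -0.064, Stat2 -0.011, Plk1 -0.27, Tsc22d3 0.28, Egfl7 -0.13, Cr2 0.67, Blk 0.17, Slc5a5 0.65, Chad 2.01, Rag1 1.61, Tg 1.00, Th 0.028. Without vehicle 3 and valsartan 1 they were Calca 0.45, Ace 0.13, Agtr1a 0.083, Agtrap -0.020, Rnpep 0.061, Nr3c2 0.16, Hsd11b2 0.11, Nppc 0.91, Npr1 0.013, Tyms -0.81, Plk1 -1.57, Cdk1 -1.07, Mt2 0.0067, Tsc22d3 0.093, Scara5 0.0040, Lat -4.47, Slc5a5 0.61, Chgb 0.077, Ddc 0.049, Chad 0.57, Tg 1.02, Th 0.23, Kit 0.010. Leaving out single libraries gave log2 differences across 0 for 41 genes: Calca -7.98 to 2.13, Ace -0.76 to 0.40, Agtr1a -0.36 to 0.27, Agtrap -0.038 to 0.26, Atp6ap2 -0.25 to 0.27, Enpep -0.25 to 0.00011, Lnpep -0.20 to 0.10, Mme -0.25 to 0.23, Rnpep -0.23 to 0.016, Nr3c2 -0.22 to 0.16, Edn1 -1.01 to 0.091, Il6 -0.27 to 2.16, Nppc -2.20 to 0.64, Tnfrsf11b -2.35 to 0.18, Eln -1.65 to 0.33, Smad6 -0.63 to 0.042, Fosb -2.12 to 0.73, Nr4a1 -0.95 to 0.030, Fosl1 -1.34 to 0.086, Tyms -0.70 to 0.96, Plk1 -1.38 to 1.32, Cdk1 -0.89 to 1.19, Lcn2 -1.93 to 0.12, Robo4 -0.0025 to 0.34, Egfl7 -0.048 to 0.43, Pi16 -1.22 to 0.37, Col15a1 -0.040 to 0.82, Scara5 -0.88 to 0.13, Cd1d1 -0.46 to 0.056, Lat -4.28 to 2.25, Psmb11 -13.14 to 1.24, Ighm -2.34 to 1.13, Blk -0.91 to 0.024, Slc5a5 -3.20 to 1.07, Iyd -10.05 to 5.30, Ddc -4.55 to 0.070, Chad -2.08 to 0.77, Rag1 -6.52 to 2.11, Tg -10.85 to 8.62, Ucp1 -0.68 to 0.011, Th -5.53 to 0.35. The cause was not tested.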
